A study of Mus musculus with 54 samples.

Results

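The binding of CTCF and of the cohesin subunits Smc3 and Rad21 was examined around 8 mouse genes that are used and expressed in neural progenitors: Nes, Fabp7, Hes5, Sox1, Pax6, Otx2, Zic1 and Pou3f2. The genes were taken from a list, and a peak belonged to a gene when its summit lay within 50 kb of the gene body in the GENCODE vM21 annotation of mm10. These 8 genes are 8 of the 21924 protein-coding genes of that annotation. Their windows held 59 of the 68126 CTCF sites found over all libraries, where a site is a group of peaks that overlap by at least 1 base, and 60 Smc3 and 13 Rad21 sites.

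The study deposited peak lists for 44 chromatin immunoprecipitation (ChIP-seq) libraries of mouse E14TG2a cells, 22 for CTCF, 14 for Smc3 and 8 for Rad21. The rescue lines carry a degron tag on both endogenous alleles of CTCF, a transgene for CTCF WT or for CTCF lacking zinc finger 1 (ΔZF1) sits at the Tigre locus under doxycycline control, and they received 1 μM 5-Ph-IAA with 1 μg/ml doxycycline for 24 hours. The rescue groups were NPC ΔZF1 and NPC WT (cells taken toward neural progenitors for 2 days in N2B27 medium on laminin), and ESC ΔZF1 and ESC WT (embryonic stem cells), each with 4 CTCF, 2 Smc3 and 2 Rad21 libraries. Without the degron, NPCs of lines with a polyadenylation signal that truncates the Podxl RNA (Podxl pA) or the Grb10 RNA (Grb10 pA), and of unedited E14, had 2 CTCF and 2 Smc3 libraries each. The WT and ΔZF1 transgenes were each studied in lines grown from a clone, so clone and transgene cannot be told apart. Rescue and E14 cells differ in tag, transgene and drug treatment together. The paper also describes the degron factor OsTIR1 and an mCherry reporter, knocked in with clonal selection as the rescue lines were made. Peak lists hold no RNA, so the labelled cell types could not be checked against marker genes, and nothing in the labels says that replicates were separate cultures: the p-values measure the spread between these libraries.

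CTCF binds DNA through a row of zinc fingers and stops the cohesin ring as it extrudes a chromatin loop, so strong CTCF sites are places where cohesin gathers. Loops anchored there can bring enhancers to a promoter or insulate it from its neighbours. Neural progenitor genes are silent or low in stem cells and switch on as cells take a neural fate. Zinc finger 1 is outside the core fingers that read the DNA motif and is one of the CTCF parts that bind RNA.

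The libraries differed widely in their number of peaks, which ran over 5755 to 45941 for CTCF, 8169 to 34104 for Smc3 and 1306 to 10415 for Rad21. The fold enrichment of each peak, as the peak caller gave it, was turned into a percentile among the peaks of its own library. A percentile of 100 is the strongest peak. Percentiles take out the scale of a library's folds but not its number of peaks. A list that holds fewer weak peaks gives the same site a lower percentile, so percentiles of lists of unlike length are compared with this limit. In the CTCF rescue libraries the genome background was 1.14 to 2.39 fragments per base in replicates 1 and 4 and 0.392 to 0.905 in replicates 2 and 3. Peaks within 1 kb of a gene start made up 9.47% to 40.5% of the peaks in those 16 libraries and 6.97% and 8.31% in the E14 libraries. The part these differences play in the results below was not tested.

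Sites were spread unevenly over the genes. The Nes window held 19 CTCF sites and the Hes5 window 12, against 7 at Sox1, 5 each at Otx2, Zic1 and Pou3f2, and 3 each at Pax6 and Fabp7. Of the 59 sites, 3 were called in all 22 CTCF libraries, 2 at Nes and 1 at Hes5, while 17 were called in 1 library. Nes sits among 6 other coding genes within its window, and Sox1 and Otx2 among none. Sites in a window are therefore near the listed gene but need not act on it. Rad21, with the fewest peaks, had no site at Pax6 or Zic1, and Smc3 had 14 or 15 sites at Hes5 and Nes, and 11 at Sox1.

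**Figure D1:**
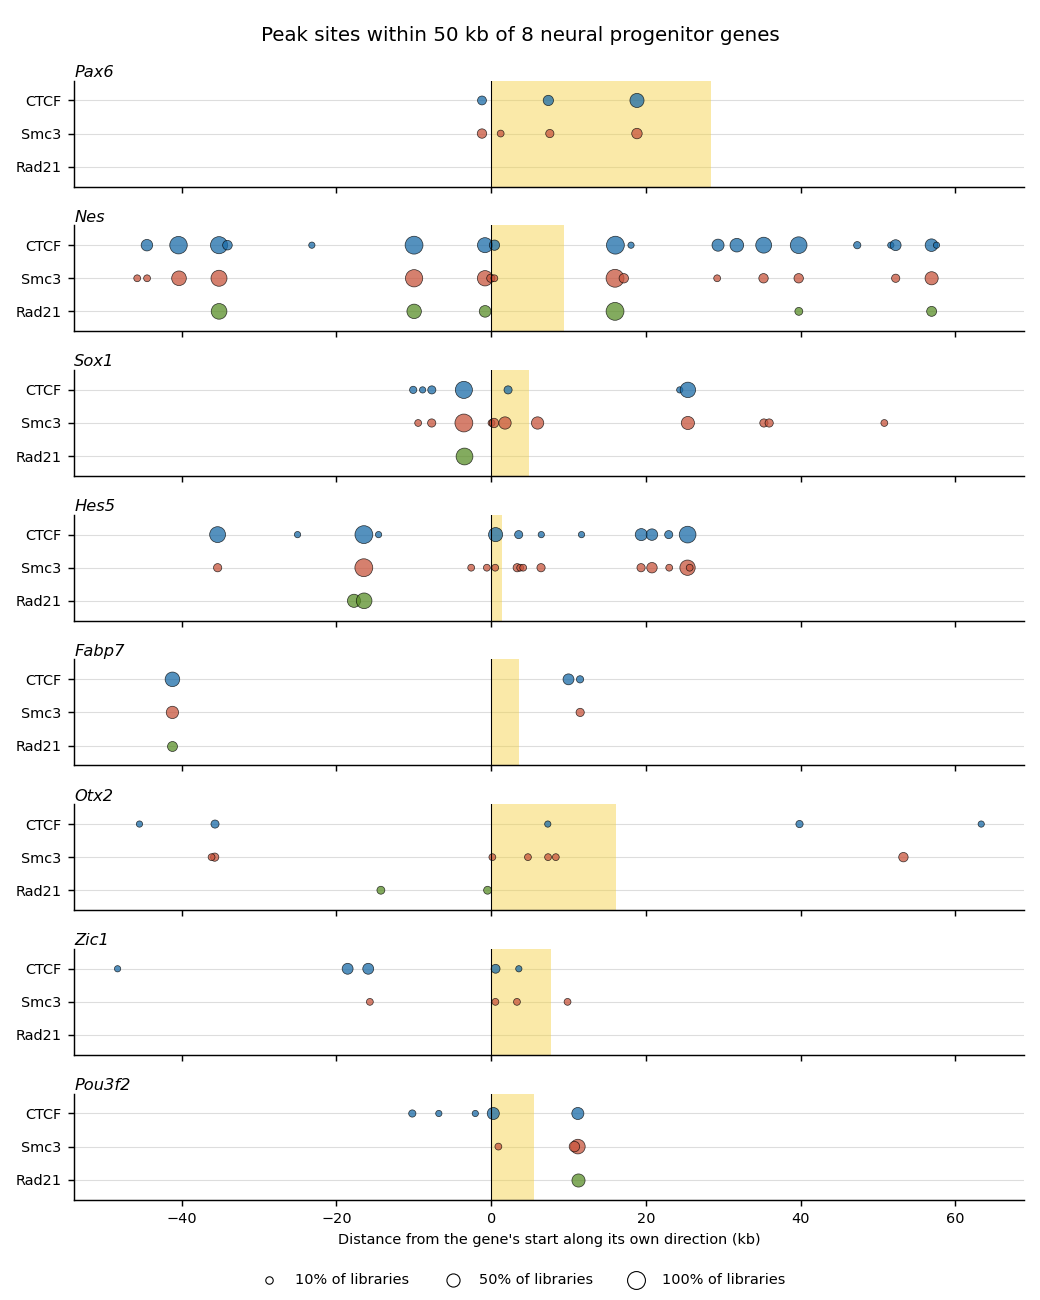
CTCF, Smc3 and Rad21 sites around the 8 genes, one row of circles per protein, against distance from the gene's start in kb along its direction of transcription (yellow: gene body). Circle size is the share of that protein's libraries with the site called: CTCF sites called in all 22 libraries lie 9968 bases before and 16056 bases after the Nes start and at -16450 from the Hes5 start, and Pax6 and Zic1 have no Rad21 circle.

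The DNA under the sites that carry the results is shown here so that each can be placed beside its values. The bases are from RefSeq's GRCm38.p6 assembly, which has the coordinates of mm10, each printed 5′ to 3′ on the strand named, with the best match to the CTCF motif in capitals. The motif was a 19-base weight matrix built from 1924 of the 2000 strongest E14 peaks, and a match had to score at least 9.52, the level that 5% of sequences lying 1000 bases away from CTCF sites reach. Positions are distances of the site's summit from the gene's start, with a minus sign for upstream. The following 5 sites hold a match:
Nes +16056 (chr3:87987110-87987188, minus strand, score 23.06): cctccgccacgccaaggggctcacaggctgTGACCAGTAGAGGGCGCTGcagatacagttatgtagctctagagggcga
Nes -9968 (chr3:87961097-87961175, minus strand, score 11.30): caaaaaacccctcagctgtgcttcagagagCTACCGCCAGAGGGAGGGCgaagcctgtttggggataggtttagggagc
Sox1 -3528 (chr8:12391726-12391804, plus strand, score 16.09): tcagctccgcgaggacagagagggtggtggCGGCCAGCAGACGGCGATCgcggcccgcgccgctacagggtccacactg
Hes5 -16450 (chr4:154944463-154944541, plus strand, score 20.20): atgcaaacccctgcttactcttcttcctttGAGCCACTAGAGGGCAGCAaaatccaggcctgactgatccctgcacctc
Fabp7 -41195 (chr10:57743614-57743692, plus strand, score 16.42): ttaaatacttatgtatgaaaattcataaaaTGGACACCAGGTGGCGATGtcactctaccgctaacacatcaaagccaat

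Another 3 sites, each called in more NPC WT than ESC WT libraries, hold no match within the 201 bases searched around the summit, on either strand. They are printed without capitals on the plus strand:
Pax6 +18845 (chr2:105687706-105687784, best score 8.73): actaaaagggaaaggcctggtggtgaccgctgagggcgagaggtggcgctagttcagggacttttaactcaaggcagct
Pou3f2 +274 (chr4:22488053-22488131, best score 7.69): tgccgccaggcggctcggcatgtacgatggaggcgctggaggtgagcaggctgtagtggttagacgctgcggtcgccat
Zic1 -15890 (chr9:91381661-91381739, best score 8.67): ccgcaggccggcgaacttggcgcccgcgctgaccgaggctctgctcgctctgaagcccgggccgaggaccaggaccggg

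A match was found at 30 of the 59 sites (50.8%), against 49226 of all 68126 CTCF sites (72.3%). The share followed how often a site was called: 5 of 6 sites called in 20 to 22 libraries held a match, 8 of 11 in 10 to 19 libraries, 10 of 25 in 2 to 9 libraries and 7 of 17 in 1 library, beside 90.4%, 85.7%, 70.4% and 56% of all sites in the same classes. Of the 34 sites seen in rescue libraries alone, 12 held a match (35.3%, against 52.3% of all such sites), and of the 25 also seen in an E14 or pA library 18 did (72%, against 86.1%). A match describes the letters and does not show that the site is used.

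Nes (chr3:87971078-87980451, plus strand) encodes nestin, an intermediate filament protein of neural progenitors. The site 16056 bases downstream of its start, intergenic and next to Bcan, was the strongest of all 59. Its CTCF percentiles ran over 96.8 to 99.7 in NPC ΔZF1, NPC WT, ESC ΔZF1 and ESC WT, with 99.2 and 99.4 in E14. Smc3 was called there in 14 of 14 libraries and Rad21 in 8 of 8. For CTCF the groups overlapped. Rad21 was lower in ESC ΔZF1, at 41.2 and 74.1, than in the other 6 libraries (77.1 to 98.2), and Smc3 was lower in Grb10 pA, at 87.9 and 89.2, than in the other 12 libraries (91.4 to 99.9).

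The site 9968 bases upstream of Nes was also called in every CTCF library. The CTCF percentiles were 88.0, 91.8, 74.5 and 94.0 in NPC ΔZF1 and 97.4, 95.2, 97.7 and 95 in NPC WT. They were 97.2, 88.3, 93.9 and 92.2 in ESC ΔZF1 and 98.3, 97.2, 97.5 and 95.4 in ESC WT. All 4 NPC ΔZF1 libraries lay below all 4 NPC WT libraries, while the ESC groups overlapped across replicate numbers, with ESC ΔZF1 lower than ESC WT under each of the 4 numbers. The lowest value, 74.5, was in NPC ΔZF1 replicate 3, the CTCF library with the fewest peaks (5755). The difference was -0.36 ± 0.24 (SE) for NPC ΔZF1 against NPC WT on the rank scale used for testing, described below, with a limma adjusted p of 0.747, and -0.50 ± 0.20 for ESC ΔZF1 against ESC WT, with a limma adjusted p of 0.536, so neither passed, nor did either with the replicate block (limma adjusted p of 0.471 and 0.211).

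Further Nes sites were of middle rank. Nes -35173, in an intron of Isg20l2 and with the highest motif score of the 59 (25.36), was called in 20 of 22 libraries. It was missing from NPC ΔZF1 replicates 1 and 2. Nes -801, just before the promoter, was called in 15 libraries, 1 of 4 NPC ΔZF1 and 3 of 4 NPC WT, 2 of 4 ESC ΔZF1 and 4 of 4 ESC WT. Nes +39740 was called in 1 of 4 NPC ΔZF1 and 4 of 4 NPC WT libraries, and in 4 of 4 ESC libraries of either transgene.

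Fabp7 (chr10:57784881-57788450, plus strand) encodes a fatty acid binding protein of radial glia. Its best site lay 41195 bases upstream, in intergenic DNA. It was called in 0 of 4 NPC ΔZF1 libraries, against 3 of 4 NPC WT libraries at percentiles of 68.1, 76.1 and 24.4 (replicates 1, 3 and 4). It was called in 3 of 4 ESC ΔZF1 libraries at 66.4, 4.02 and 40.0 and in 3 of 4 ESC WT libraries at 74.8, 39 and 44.3. E14 had 95.6 and 64.0. CTCF was thus not called at the site in NPC ΔZF1 and was called in most other libraries. Smc3 was called there in both NPC ΔZF1 libraries, at 56.5 and 59.4, and in 1 of 2 NPC WT libraries, at 77.2. Rad21 was called there in 1 of 2 NPC ΔZF1 libraries, at 43, and 1 of 2 NPC WT libraries, at 52.7. The 4 NPC ΔZF1 libraries had 13639, 10242, 5755 and 33452 CTCF peaks. Of all 16318 sites called in at least 3 of 4 NPC WT libraries, they overlapped 51.6%, 49.6%, 27.4% and 85.2%. The part that peak number plays in the missing calls was not tested.

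Hes5 (chr4:154960923-154962371, plus strand) encodes a repressor that Notch signalling induces to keep progenitors undifferentiated. Its intergenic upstream site at -16450 was called in all 22 CTCF libraries. The CTCF percentiles were 98.2, 94.2, 96.4 and 93.7 in NPC WT and 96.7, 96.9, 96.3 and 84.1 in ESC WT, which overlapped. In NPC ΔZF1 they were 90.4, 90.7, 75.5 and 98.1 and in ESC ΔZF1 97.3, 96.3, 91.3 and 90.7. A weaker site in the Hes5 coding exon, 574 bases after the start, was called in 2, 3, 3 and 3 of 4 libraries of NPC ΔZF1, NPC WT, ESC ΔZF1 and ESC WT, and in neither E14 library.

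Sox1 (chr8:12395295-12400126, plus strand) encodes an early transcription factor of the neural plate. Its site 3528 bases upstream, in an intron of the transcript Sox1ot, was called in 20 of 22 libraries. The CTCF percentiles were 95, 98.0, 92.8 and 95.9 in NPC WT and 96.6, 95.9, 93.0 and 90.9 in ESC WT. In ΔZF1 they were lower and more scattered. NPC ΔZF1 had 77.2, 0.573 and 95.7 in replicates 1, 3 and 4 and no peak in replicate 2. ESC ΔZF1 had 88.0, 22.2 and 78.8 in replicates 1, 2 and 4 and no peak in replicate 3. All ESC ΔZF1 libraries lay below all ESC WT libraries, while NPC ΔZF1 replicate 4 lay inside the NPC WT range. By fragments at the summit over the genome background of the library, the called ESC libraries had 61.0, 30.4 and 34.8 in ESC ΔZF1 (replicates 1, 2 and 4) and 159, 132, 97.4 and 60.7 in ESC WT. The ESC groups met across replicate numbers, while under each of the 3 numbers called in both, ESC ΔZF1 was lower than ESC WT. The site was not in the rank test of ΔZF1 against WT, which used sites called in every library compared.

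Pax6 (chr2:105668900-105697364, plus strand), a transcription factor of cortical and eye progenitors, had 3 CTCF sites. Their median percentiles where called were 11.6 at Pax6 -1188, 36.1 at Pax6 +7391 and 22.4 at Pax6 +18845. Pax6 +7391 was called in 2 NPC ΔZF1 libraries, at 87.2 and 89.7, and in 2 NPC WT libraries, at 31.3 and 40.8. It was also in 1 ESC ΔZF1 library, at 17.8, and 1 Grb10 pA library, at 4.5, and in 0 ESC WT libraries. The most often called site, in an intron 18845 bases after the start, was in 1 of 4 NPC ΔZF1 and 4 of 4 NPC WT libraries. In ESC it was called in 2 of 4 ESC ΔZF1 and 2 of 4 ESC WT libraries, and both E14 libraries had it. The percentiles were 22.4, 24.6, 5.77 and 21.6 in NPC WT and 8.14 and 12.3 in E14, low in both. Where called it had 59.8 and 60.7 in ESC ΔZF1 and 45.7 and 6.42 in ESC WT. The libraries with no peak have no level, so NPC and ESC levels were not compared.

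Pou3f2 (chr4:22482780-22488366, minus strand), which encodes the neural POU factor Brn2, had a site in its single coding exon, 274 bases after the start. The site was called in more NPC WT than ESC WT libraries. CTCF was called there in 4 of 4 NPC WT libraries, at percentiles of 60.0, 43.6, 0.432 and 43.4, and in 1 of 4 ESC WT libraries, at 12.6. NPC ΔZF1 had it in replicates 1 and 4, at 62.4 and 88.6, and ESC ΔZF1 in the same replicates, at 14.3 and 42.7. It was in none of the 6 E14 and pA libraries. The site 11201 bases after the start was called in 9 CTCF libraries, without a motif match, and overlapped an Smc3 peak in 10 of 14 and a Rad21 peak in 4 of 8 libraries.

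Zic1 (chr9:91358058-91365810, minus strand), a zinc finger factor of the dorsal neural tube, had a pair of sites 15890 and 18552 bases upstream, inside its neighbour Zic4. Zic1 -15890 was called in 2 of 4 NPC ΔZF1 and 3 of 4 NPC WT libraries and in 2 of 4 ESC ΔZF1 and 0 of 4 ESC WT libraries, at percentiles of 21.3, 18 and 7.45 in NPC WT. No E14, Podxl pA or Grb10 pA library had Zic1 -15890. Zic1 -18552 was called in 1 of 4 NPC ΔZF1 and 3 of 4 NPC WT libraries and in 1 of 4 libraries of each ESC group. Otx2 (chr14:48657677-48673819, minus strand), a forebrain factor that stem cells primed to differentiate also use, had 5 CTCF sites, none called in more than 3 of 22 libraries. Its best, Otx2 -35691, was in 1 library each of NPC ΔZF1, NPC WT and ESC ΔZF1.

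**Figure D2:**
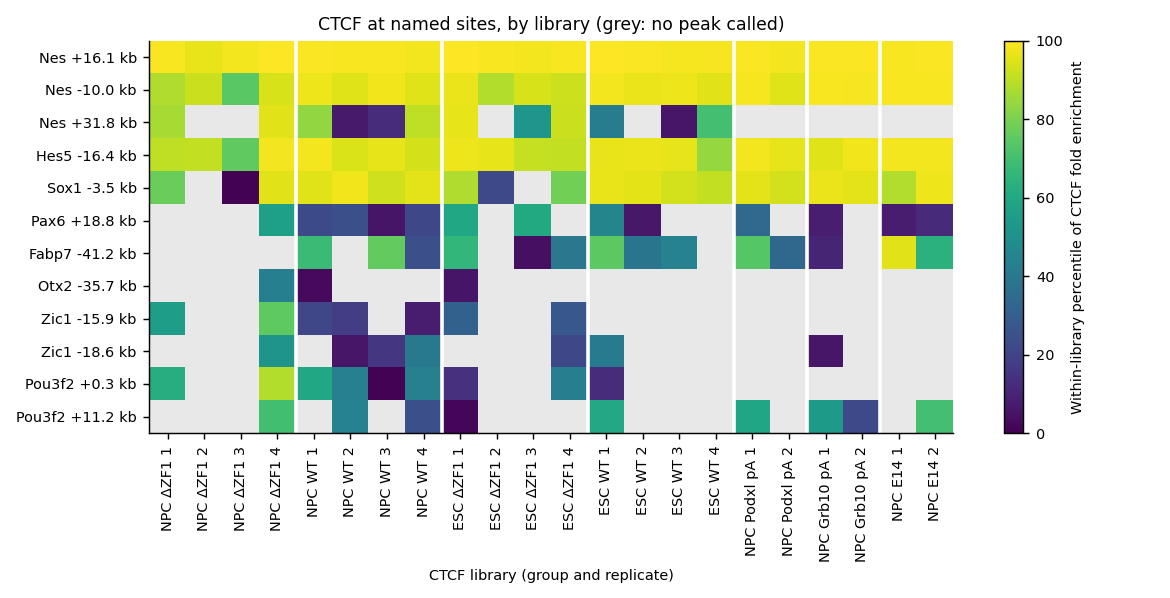
Within-library percentile of CTCF fold enrichment (colour, 0 to 100) at 12 sites near the 8 genes (rows, with distance from the gene's start in kb) in the 22 CTCF libraries (columns, by group and replicate); grey means that no peak was called. The rows of Nes +16056, Nes -9968, Hes5 -16450 and Sox1 -3528 are filled nearly throughout, while Otx2, Zic1 and Pou3f2 sites are grey in most libraries.

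The comparison of NPC with ESC asks which sites change as the cells take a neural fate. It was made in 3 ways: by sites that all libraries of one group and none of the other had, called switched here; by a limma test of ranks at sites called in all libraries compared, on a scale where each library's ranks were turned into normal scores with an SD of 1; and by the number of peaks in each gene window per 10000 peaks. A rank difference of 1 is thus 1 SD among the sites tested in that comparison, which are not all of a library's peaks.

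For CTCF in WT cells, 0 of 47 sites near the 8 genes were switched in either direction, where 0.139% of all 51851 sites were. With 47 sites, a count of 0 is near that share. It leaves room for sites in some libraries of 1 group alone, such as Zic1 -15890, in 3 of 4 NPC WT and 0 of 4 ESC WT libraries. By rank, 0 of 8 tested sites passed limma at an adjusted p under 0.05, and 0 had an unadjusted p under 0.05, where 0.251% of 5981 sites passed. The rank differences ran over -0.68 ± 0.48 (SE) at Nes +39740 to 0.84 ± 0.53 at Nes -40410, with -0.04 ± 0.21 at Nes +16056, -0.14 ± 0.20 at Nes -9968, 0.16 ± 0.23 at Hes5 -16450 and 0.17 ± 0.25 at Sox1 -3528 (n = 4 NPC WT and 4 ESC WT). With the replicate number as a block, the calls over all sites came to 105 higher and 27 lower in NPC in place of 12 and 3, with 0 of the 8 members called in either fit, and 0 likewise with quantile-normalized log2 fold or with fragments at the summit. In ΔZF1 cells, 0 of 50 sites were switched (0.233% of all sites) and 0 of 3 tested sites passed by rank (0% of 2280 sites), and 0 of the 3 had an unadjusted p under 0.05, in this fit, with the block and with either other measure.

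Counting peaks in the windows, Zic1 was the member with more CTCF peaks in NPC WT than in ESC WT without overlap. Its window held 0.655, 1.41, 0.401 and 1.99 CTCF peaks per 10000 in NPC WT and 0.233, 0, 0 and 0 in ESC WT. All 4 NPC WT values were above the ESC WT values, but they stand for 2, 3, 1 and 3 peaks in NPC WT against 1, 0, 0 and 0 in ESC WT. The NPC lines without the degron did not share the higher values of NPC WT. They had 0 and 0 in E14, 0 and 0 in Podxl pA, and 0.359 and 0 in Grb10 pA. Over all genes with a peak, 2.25% showed NPC WT above ESC WT in this way, and 4 of 41 other neural genes and 0 of 18 pluripotency genes did. With every library brought to the same number of peaks, or with peaks as counted, Zic1 no longer qualified. Leaving out NPC WT replicate 3 gave 5 such windows, and leaving out ESC WT replicate 1 gave 2. In ΔZF1 cells 0 of 8 windows qualified, where 1.05% of genes did.

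**Figure D3:**
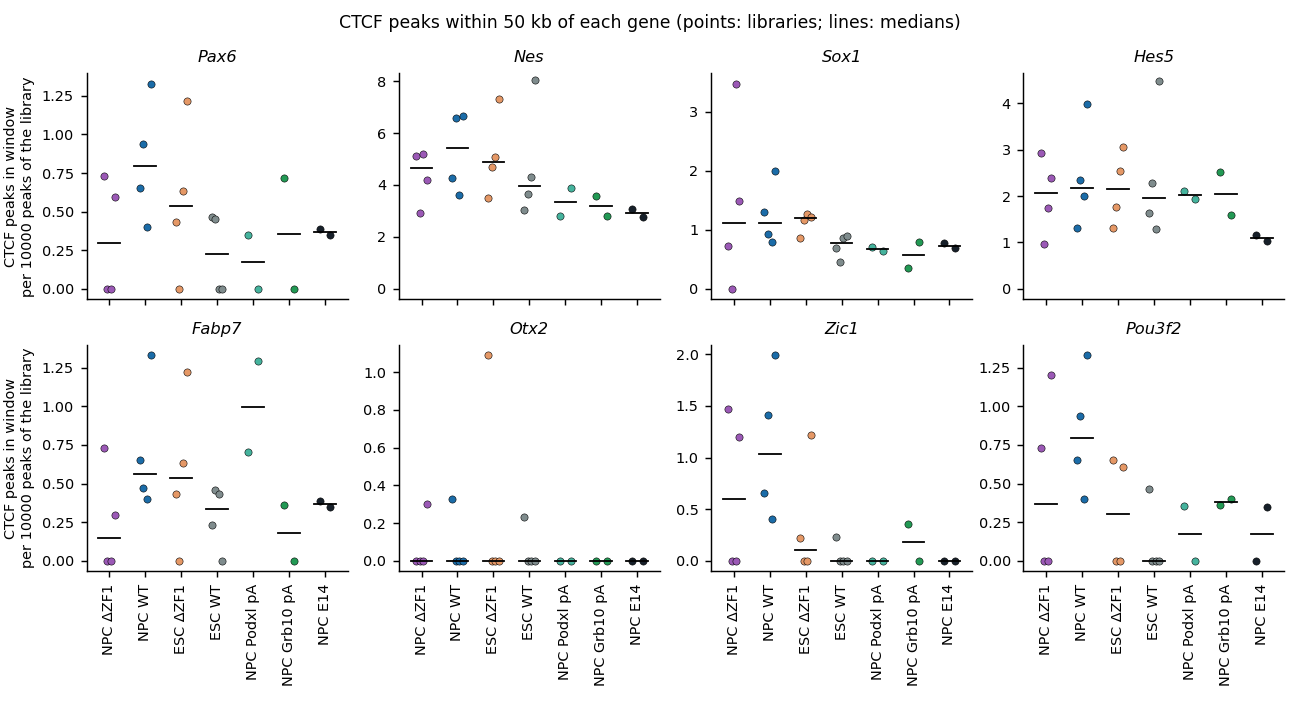
CTCF peaks within 50 kb of each gene per 10000 peaks of the library (vertical axis), by group; points are libraries and lines are group medians. In the Zic1 panel the NPC WT points (0.401 to 1.99) lie above the ESC WT points (0 to 0.233), while at Nes and Hes5 the NPC and ESC groups overlap.

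Cohesin ranked higher in NPC than in ESC at 2 sites where CTCF did not pass the test, upstream of Hes5 and of Sox1; whether cohesin and CTCF differ in this was not tested. At Hes5 -16450, the Smc3 percentiles were 99.6 and 98.6 in NPC WT and 66.5 and 65.9 in ESC WT. They were 99.4 and 98.4 in NPC ΔZF1 and 82.1 and 54.5 in ESC ΔZF1. Rad21 had 92.6 and 97.1 in NPC WT and 29.3 and 42.2 in ESC WT, and 53.4 and 77.9 in NPC ΔZF1 with no peak in either ESC ΔZF1 library. No NPC library overlapped an ESC library of the same protein and transgene.

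By rank, Smc3 at Hes5 -16450 was higher in NPC WT than in ESC WT by 2.08 ± 0.39 (SE), with a limma adjusted p of 0.00347, and in NPC ΔZF1 than in ESC ΔZF1 by 1.64 ± 0.36, with a limma adjusted p of 0.015. Rad21 there was higher in NPC WT by 2.26 ± 0.40, with a limma adjusted p of 0.0085. The Smc3 call in WT held without any 1 of its 4 libraries. The ΔZF1 call did not hold without NPC ΔZF1 replicate 1 (0.134) or ESC ΔZF1 replicate 2 (0.0629), nor the Rad21 call without ESC WT replicate 1 (0.0504) or 2 (0.0535), all limma adjusted p. The NPC E14 and pA libraries, which have no ESC counterpart, had Smc3 percentiles of 79.0 and 95.9 (Podxl pA), 99.6 and 88.7 (Grb10 pA) and 95.1 and 97.6 (E14). CTCF at this site differed by 0.16 ± 0.23 in WT and 0.16 ± 0.26 in ΔZF1, with limma adjusted p of 0.778 and 0.991.

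At Sox1 -3528, the Smc3 percentiles were 98.6 and 99.7 in NPC WT and 83.8 and 86.2 in ESC WT, and 98.9 and 99.6 in NPC ΔZF1 and 89.3 and 96.8 in ESC ΔZF1. Rad21 had 85.1 and 67.2 in NPC WT and 14.7 and 41.2 in ESC WT, and 70.5 and 83.2 in NPC ΔZF1 with 15.9 in 1 of 2 ESC ΔZF1 libraries. The NPC values were again above the ESC values within each protein and transgene. Smc3 passed in WT, with a difference of 1.39 ± 0.41 and a limma adjusted p of 0.0364, but not in ΔZF1, at 0.69 ± 0.37 and a limma adjusted p of 0.234. Rad21 in WT had 1.51 ± 0.44 and a limma adjusted p of 0.0502. The WT call for Smc3 was lost when any of its 4 libraries was left out, with adjusted p of 0.055 to 0.318.

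These calls rest on fold over the local background, and the local background moved with them. At Hes5 -16450 the local background of the Smc3 libraries was 1.43 and 1.58 times the library's genome background in NPC WT and 2.95 and 2.6 times in ESC WT, and 1.44 and 1.55 times in NPC ΔZF1 and 3.09 and 2.94 times in ESC ΔZF1. For Rad21 it was 1.43 and 1.49 times in NPC WT and 2.98 and 2.87 times in ESC WT. At Hes5 the fragments at the summit over the genome background were closer than the folds. For Smc3 they were 77.3 and 36.1 in NPC WT and 31.4 and 19.1 in ESC WT, and for Rad21 20.9 and 24.3 in NPC WT and 17.9 and 18.8 in ESC WT. At Sox1 -3528, Smc3 had 120 and 73.4 in NPC WT and 53.9 and 35.1 in ESC WT, and 111 and 101 in NPC ΔZF1 and 61 and 57 in ESC ΔZF1, with no overlap. For Rad21 there the WT groups overlapped, with 29.7 and 23.4 in NPC WT and 20.7 and 24.7 in ESC WT. In ΔZF1, Rad21 had 25.7 and 28.5 in NPC and 16.6 in the 1 ESC library called.

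When sites were ranked by fragments at the summit in place of fold, an alternative chosen after seeing the data, the Smc3 difference at Hes5 -16450 was 0.73 in WT and 0.30 in ΔZF1 and the Rad21 difference in WT was 0.65, with limma adjusted p of 0.264, 0.629 and 0.411. Sox1 -3528 had 0.56 for Smc3 in WT, with a limma adjusted p of 0.384. No call at the 8 genes was left, and over all sites the calls fell to 0 for Smc3 in WT and in ΔZF1 and to 26 higher and 13 lower for Rad21 in WT. The surrounding background was lower in NPC where the rank of cohesin was higher, and its part in the calls was not tested beyond this.

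**Figure D4:**
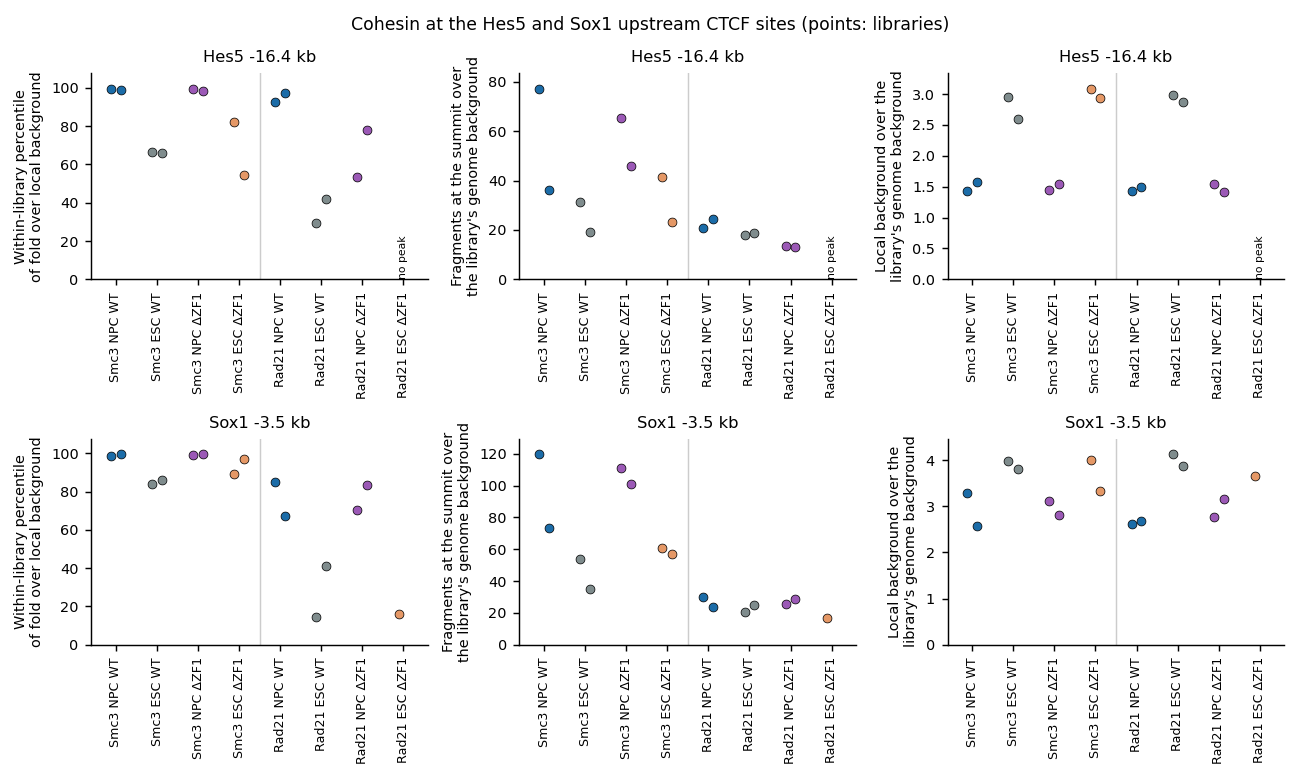
Smc3 and Rad21 at Hes5 -16450 (upper row) and Sox1 -3528 (lower row) in the rescue libraries: percentile of fold over local background (left), fragments at the summit over the genome background of the library (middle) and local background over the genome background (right), 1 point per library. Every NPC point is above the ESC points of the same protein and transgene by percentile and lower than them by local background, for example 1.43 and 1.58 in NPC WT against 2.95 and 2.6 in ESC WT for Smc3 at Hes5.

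Over the comparison as a whole, 2 of 4 tested member sites passed for Smc3 in WT, where 12.3% of all 6512 sites passed in either direction, and 1 of 10 passed in ΔZF1, where 13.7% of 10000 did. For Rad21 1 of 3 passed in WT (9.21% of 2106 sites) and 0 of 1 in ΔZF1 (15.1% of 723 sites). The 1 Rad21 site tested in ΔZF1 was Nes +16008, at 1.06 ± 0.42 with a limma adjusted p of 0.12 and an unadjusted p under 0.05. With so few member sites tested, these counts say nothing of the genes as a group.

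With all libraries used, the Smc3 member sites that were switched within a transgene were all on the NPC side. In WT, 2 of 29 sites were in both NPC WT libraries and neither ESC WT library, where 6.17% of all sites were, and 0 were the other way. Over all sites, 1868 were in NPC WT alone and 75 in ESC WT alone. The members were Nes -40345, at percentiles of 57.6 and 47.1, and Sox1 +5931, at 13.0 and 5.68. The Nes place was also called in both ESC ΔZF1 libraries, at 8.1 and 11, and in 1 of 2 E14 libraries. In ΔZF1, 18 of 57 sites were in both NPC ΔZF1 libraries and neither ESC ΔZF1 library, where 20.4% of all sites were: 7 at Sox1, 4 at Nes, 2 each at Fabp7 and Pax6 and 1 each at Otx2, Pou3f2 and Hes5. The NPC ΔZF1 libraries had 30516 and 34104 Smc3 peaks and the ESC ΔZF1 libraries 18023 and 12181, and at equal peak numbers 0 of these sites remained. In WT, leaving out NPC WT replicate 2, with 13710 peaks, gave 15 switched sites, all in NPC alone. Leaving out ESC WT replicate 1 gave 4 in NPC alone and 1 in ESC alone. Without ESC WT replicate 2 there were 3 in NPC alone and 1 in ESC alone. In ΔZF1, leaving out NPC ΔZF1 replicate 1 gave 38.

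Around Sox1 the NPC libraries had Smc3 peaks across the gene itself. Peaks within the site at +1791, over the coding exon, and at +6000, just past the gene's end, were called in both NPC ΔZF1, both NPC WT and in replicate 2 of Podxl pA and of E14, and in none of the 4 ESC libraries. They were weak: the strongest peak of each library had a percentile of 5.64 to 28.8 in the rescue NPC libraries at +1791 and 4.34 to 41.5 at +6000. The peaks within the site at +1791 in the NPC WT libraries did not overlap each other, so that this site was not counted as switched in WT.

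The Sox1 window held 2.16 and 2.19 Smc3 peaks per 10000 in NPC WT and 0.559 and 1.22 in ESC WT, and 3.28 and 3.52 in NPC ΔZF1 and 1.11 and 1.64 in ESC ΔZF1. Sox1 was the 1 of 7 windows in which NPC WT lay above ESC WT, where 15.3% of genes did, and 12 of 39 other neural genes and 2 of 16 pluripotency genes. In ΔZF1, 6 of 8 windows did, all but Nes and Pou3f2, where 26.9% of genes did, and 19 of 42 other neural genes and 2 of 18 pluripotency genes. At equal peak numbers the ΔZF1 count was 0, and in WT the window that qualified was Nes in place of Sox1. In WT, Sox1 was again the 1 window with NPC above ESC without NPC WT replicate 1 or without ESC WT replicate 1. Without NPC WT replicate 2 there were 5, and without ESC WT replicate 2 there were 2, Nes and Sox1. ESC WT lay above NPC WT at Hes5 without NPC WT replicate 1 and at Nes without ESC WT replicate 1. It did so at Fabp7 without ESC WT replicate 2.

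**Figure D5:**
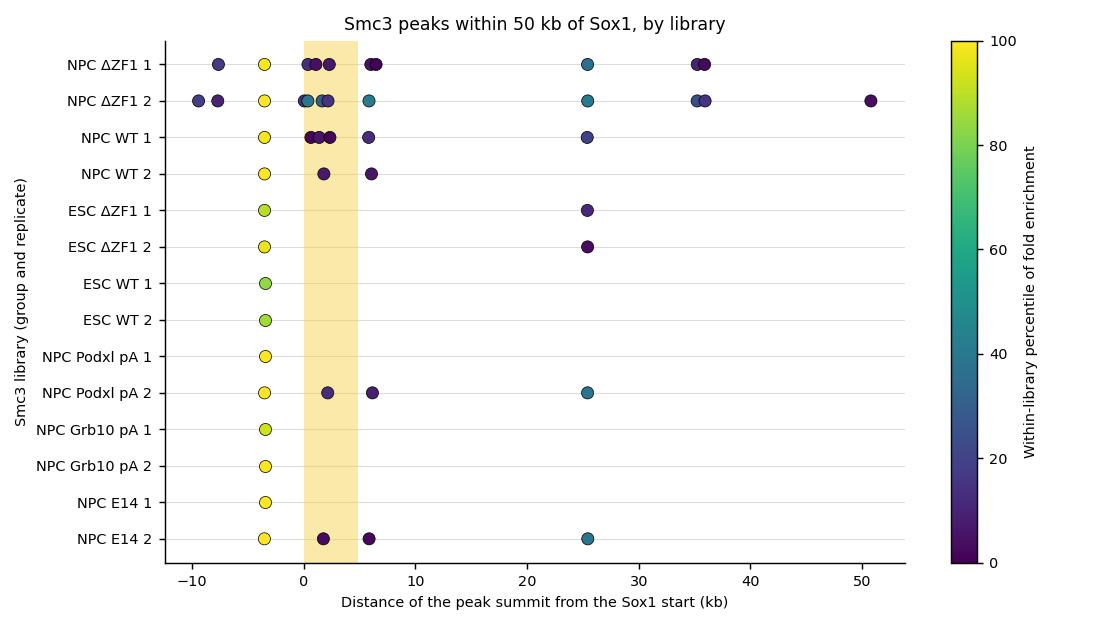
Smc3 peaks within 50 kb of Sox1 in each of the 14 Smc3 libraries (rows) against distance of the summit from the Sox1 start in kb (yellow: gene body), coloured by within-library percentile. The site 3528 bases upstream is in all 14 libraries at high percentiles, and peaks over the gene are in the 4 NPC rescue libraries, Podxl pA 2 and E14 2, at percentiles of 41.5 or less, and in no ESC library.

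For Rad21, 0 of 10 member sites were switched in WT, where 6.56% of all sites were in either direction. In ΔZF1 there were 2 of 13, both upstream of Hes5. Hes5 -16435, the site described above, was called in both NPC ΔZF1 libraries and neither ESC ΔZF1 library, where 22.7% of all sites were. Hes5 -17730, further from the gene, was called in both ESC ΔZF1 libraries at 19.8 and 83.3 and neither NPC ΔZF1 library, where 0.845% of sites were. In WT the same place was called in 1 of 2 NPC libraries, at 2.81, and 1 of 2 ESC libraries, at 14.3. The ESC ΔZF1 libraries had the fewest Rad21 peaks, 1306 and 2347, at a genome background of 2.44 and 2.77 fragments per base that lay inside the range of the other Rad21 libraries (2.06 to 3.72). Leaving out NPC ΔZF1 replicate 1 gave 6 switched sites, and leaving out NPC ΔZF1 replicate 2 or ESC ΔZF1 replicate 2 gave 4.

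The comparison of the rescue with E14 sets cells with the tag, the other knock-ins, the transgene and the drugs beside unedited cells, all in NPC, and cannot tell these apart. By rank, 0 of 9 tested CTCF sites passed limma (1.51% of 6802 sites passed), and an unadjusted p under 0.05 was reached at 1 site, Nes -35173 at -0.86 ± 0.34. For Smc3, 0 of 6 passed (0% of 7496 sites), and 1 reached an unadjusted p under 0.05, Nes +16007 at 1.13 ± 0.51. The strong sites of Nes, Hes5 and Sox1 had differences of -0.46 to 0.22 for CTCF, all within 2 SE.

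Over all sites, 1160 were in the rescue alone and 2300 (4.83%) in E14 alone. Of the members 0 were in E14 alone. In all 4 NPC WT rescue libraries and neither E14 library were 2 of 42 sites, where 2.44% of all sites were. They were Nes +31741, at 83.8, 7.21, 12.5 and 90.5, and Pou3f2 +230, the coding exon site above; neither held a motif match. Nes +31751, the same place over all libraries, was also called in 2 NPC ΔZF1, 3 ESC ΔZF1 and 3 ESC WT libraries and in none of the pA libraries. It ranked far higher in replicates 1 and 4 than in 2 and 3 of NPC WT. Leaving out NPC WT replicate 3 gave 7 switched sites, all in the rescue alone. Leaving out NPC WT replicate 1 gave 3 in the rescue alone and 1 in E14 alone. For Smc3 0 of 28 sites were switched, where 6.41% of all sites were in either direction, and leaving out NPC WT replicate 2 gave 11, replicate 1 gave 1 and either E14 library 2.

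In 7 of 8 windows, all but Otx2, every NPC WT rescue library had more CTCF peaks per 10000 than either E14 library, where 16.5% of genes did. The values for Nes were 4.25, 6.56, 3.61 and 6.64 in the rescue and 3.09 and 2.78 in E14, and for Hes5 1.31, 2.34, 2.01 and 3.99 in the rescue and 1.16 and 1.04 in E14. The pA lines, also without the degron, had Hes5 values inside the rescue range, 2.11 and 1.93 in Podxl pA and 2.51 and 1.59 in Grb10 pA. For Nes they had 2.82 and 3.87 in Podxl pA and 3.59 and 2.79 in Grb10 pA. Of the other neural genes 12 of 41 did so, and of the pluripotency genes 3 of 18. With peaks as counted 3 windows were left (Nes, Hes5 and Zic1), and at equal peak numbers 0. The share of member calls without a motif match was 46.7%, 40.7%, 30% and 51.9% in NPC WT rescue and 20% and 25% in E14, higher in each of these 4 rescue libraries. Over all sites called in the same libraries it was 21.2%, 20.9%, 13% and 33.7% in NPC WT rescue and 7.75% and 10.2% in E14. In the other rescue groups the member share ran over 12.5% to 58.8%, on both sides of E14. For Smc3 0 of 7 windows qualified, where 16.1% of genes did.

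The comparison of ΔZF1 with WT asks whether losing zinc finger 1 changes binding at these genes. In NPC 0 of 50 CTCF sites were switched (0.452% of all sites) and 0 of 3 passed by rank in limma (0% of 2359 sites), where 0 reached an unadjusted p under 0.05. In ESC 0 of 44 were switched (0.05%) and 0 of 8 passed (0.0386% of 5188 sites), where 1 reached an unadjusted p under 0.05, Nes -9968. With the replicate block, with quantile-normalized log2 fold and with fragments at the summit, 0 members passed in the rescue and ΔZF1 comparisons of CTCF as well. The sites tested were those present in every library, so a site that ΔZF1 lost could not be among them.

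The overlap per library shows how uneven the ΔZF1 libraries were. Of the 22 member sites called in at least 3 of 4 NPC WT libraries, 59.1%, 18.2%, 27.3% and 95.5% overlapped a peak in NPC ΔZF1 replicates 1 to 4, beside 51.6%, 49.6%, 27.4% and 85.2% of all 16318 such sites. Of the 15 member sites called in at least 3 of 4 ESC WT libraries, 100%, 80%, 73.3% and 86.7% overlapped a peak in ESC ΔZF1, beside 96.9%, 74.6%, 56.6% and 57.5% of all 17508. The NPC ΔZF1 libraries thus spread over 18.2% to 95.5% for the members, from library to library.

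By gene, the sites called in at least 3 of 4 NPC WT libraries were 10 at Nes, 4 at Hes5, 2 each at Sox1, Fabp7 and Zic1, 1 each at Pax6 and Pou3f2 and 0 at Otx2. In ESC WT they were 9 at Nes, 4 at Hes5, 1 each at Sox1 and Fabp7 and 0 at the other 4. Smc3 in NPC WT overlapped 59.1% and 31.8% of the 22 NPC sites by library (71.8% and 49% of all), and Smc3 in ESC WT 60% and 33.3% of the 15 ESC sites (66.1% and 36.7% of all). Of the 22, 7 had Smc3 in both NPC WT libraries, 5 at Nes and 1 each at Sox1 and Hes5, and 4 had Rad21 in both, 2 at Nes and 1 each at Sox1 and Hes5. Pax6, Fabp7, Zic1 and Pou3f2 had no such site with cohesin in both libraries.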

How the data were processed

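Peak lists of 44 of the 54 samples were used; the other samples are inputs. Per the study's methods and the submitters' processing notes, the authors aligned reads to mm10 with Bowtie2, removed reads with a mapping quality below 30 with SAMtools, duplicates with Picard and blacklisted regions with bedtools, and called peaks per sample with MACS2 at a q of 0.01; tool versions are not given in the sources used here. The deposited lists hold a score, a fold enrichment (a ratio over the local background at the summit) and the −log10 p and q of each peak. Depth is not given, so the fragments at each summit were recovered from fold and p: within 0.002 of the deposited −log10 p, 100% of 781274 peaks gave a whole number, and the lowest local background of a library stands for its genome background.

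Sites were peaks merged on 1 base of overlap. Ranks were tested on normal scores with limma 3.58.1 in R 4.3.3 over all sites called in every library compared, with Benjamini-Hochberg adjustment at 0.05, after a test on simulated data. Groups came from the titles. The 8 genes, the lists of 42 other neural and 18 pluripotency genes, the sites named (the most often called site of each gene, and sites switched, called by rank, or in all libraries of one group and at most 1 of another) and the tests were chosen with earlier results of these data known. Same-numbered CTCF libraries deviated together in the comparisons of 4 against 4 (r of 0.22 to 0.59 for each pair), so a replicate block was fitted there too. For replicate 1, the best other number gave a higher r in NPC ΔZF1 against ESC ΔZF1 (0.40, same number 0.35). It also did in NPC ΔZF1 against NPC WT (0.37, same number 0.31). In the other pairs the same number gave the higher r. The pairing comes from this check alone, the labels name no shared batch, and the peak names in the replicate 4 lists carry the number 2. Alternatives were narrower (25 kb) and wider (100 kb) windows, summits chained within 200 bases, a −log10 q of at least 5, equal peak numbers, replicates left out or split, quantile-normalized log2 fold, the replicate block and peaks as counted. Fragments at the summit and crossed replicate numbers were added after seeing the data. Peak numbers limit precision, and a site not called is not shown to be unbound.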

Additional observations from a re-analysis of the deposited data

Results flagged for a closer look

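Among 28 groups of 4 CTCF libraries checked for a library far from the other 3, a check that chance passes in about 1 of 20 groups, 2 stood out. At Hes5 -16450, ESC WT replicate 4 had a CTCF percentile of 84.1, while the nearest of the other ESC WT libraries had 96.3. At Pax6 +18845, NPC WT replicate 3 had 5.77, while the nearest of the other NPC WT libraries had 21.6.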

How the results depend on the processing

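Of the recomputed counts of members, 250 stayed within 1.5 times the value given and 87 did not; of the recomputed values at Hes5 -16450 and Sox1 -3528, 87 kept their direction and their call or lack of one, 13 lost it, 2 gained it and 4 changed direction. These 4 are CTCF at Hes5 -16450, called in no setting, at -0.17 with replicates 2 and 3 alone and -0.13 with fragments at the summit, the same in WT and in ΔZF1. Counts were small, so 1 site moves them, and causes were not tested. In this section, switched members, windows and rank calls are counted in either direction. At equal peak numbers, switched members numbered 0 for Smc3 in WT, 0 for Smc3 in ΔZF1, 1 for Rad21 in WT, 1 for Rad21 in ΔZF1 and 0 for CTCF rescue against E14; windows numbered 0 for CTCF in WT, 0 for Smc3 in ΔZF1 and 0 for CTCF rescue; and rank calls 1 for Smc3 and 0 for Rad21 in WT. With peaks as counted, windows numbered 0 for CTCF in WT, 2 for Smc3 in WT and 3 for CTCF rescue.

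With replicates 1 and 4 alone, and then 2 and 3 alone, CTCF switched members numbered 4 and 3 for NPC against ESC in WT, 5 and 3 in ΔZF1, 8 and 4 for rescue against E14, and 2 and 10 for ΔZF1 against WT in NPC; in ESC the first pair gave 3. Windows numbered 5 and 2 in WT and 1 and 1 in ΔZF1. A 100 kb window gave 2 CTCF and 3 Smc3 windows in WT, 2 rank calls for Smc3 in ΔZF1, and 1 switched member and 1 window for Smc3 rescue. A 25 kb window or chained summits gave 1 switched Smc3 member in WT each. The stricter q gave 1 switched member for CTCF rescue, and 2 with 1 window for Smc3 rescue. Quantile-normalized log2 fold gave 2 rank calls for Rad21 in WT, and fragments at the summit 0 for Smc3 in WT, 0 for Smc3 in ΔZF1 and 0 for Rad21 in WT. In comparisons of 2 libraries, or against E14, the samples share only a number (r of -0.12 to 0.26): the replicate block gave 2 rank calls for Smc3 in ΔZF1 and left the other member counts as they were, while over all sites CTCF rescue calls went to 0 higher and 0 lower and Smc3 rescue calls to 75 and 98. Crossed numbers gave 1 member call for Rad21 in ΔZF1, and for Smc3 in ΔZF1 2, as many as the block.

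Leaving out 1 library, switched members ranged over 0 to 3 and windows over 1 to 5 for CTCF in WT, switched 0 to 2 for CTCF in ΔZF1, rank calls 1 to 1, switched 3 to 15 and windows 2 to 5 for Smc3 in WT, rank 0 to 3, switched 18 to 38 and windows 6 to 8 for Smc3 in ΔZF1, rank 0 to 2 and switched 1 to 2 for Rad21 in WT, switched 3 to 6 for Rad21 in ΔZF1, switched 2 to 7 and windows 7 to 7 for CTCF rescue, rank 0 to 1, switched 1 to 11 and windows 2 to 3 for Smc3 rescue, and switched 0 to 2 for ΔZF1 against WT in NPC. The adjusted p of Hes5 -16450 was 0.00367 to 0.0461 for Smc3 in WT, and it missed 0.05 for Smc3 in ΔZF1 without NPC ΔZF1 replicate 1 (0.134) or ESC ΔZF1 replicate 2 (0.0629) and for Rad21 in WT without ESC WT replicate 1 (0.0504) or 2 (0.0535).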
